A study of Mus musculus with 5 samples.

Results

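Neutrophils carry ready-made proteins in granules, and 10 genes for specific granule proteins and other products of late maturation in the marrow are described here. They are Ngp, Ltf, Camp, Lcn2, Chil3, Cd177, Mmp8, Retnlg, Olfm4 and Hp, and all 10 were found among the 19127 genes of the deposited table by matching Ensembl identifiers to gene symbols. They were chosen by their values in 1 library, Cxcr4-labelled library 1, against the other 4, so their height in that library is a description and was not tested. All 10 passed the filter of a mean CPM (counts scaled to the column total) of at least 1, with 14632 genes passing in all, and all 10 passed it also without that library.

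The libraries came from neutrophils sorted from blood on the surface protein Ly6G after red cells were lysed. The donors were male mice of 7 to 10 weeks kept free of specific pathogens, bled at Zeitgeber time 13, which was 20 h on the clock. Bmal1-labelled libraries 2 and 3 came from BMALf/f x Mrp8Cre mice, in which the clock gene Arntl is floxed. Cxcr4-labelled libraries 1, 2 and 3 came from CXCR4f/f x Mrp8Cre mice, in which the gene for a receptor that holds neutrophils in the marrow is floxed. Both groups carry the Cre driven by the Mrp8 (S100a8) promoter, which is active in myeloid cells and foremost in neutrophils, and no library without a floxed gene was analysed here. Polyadenylated RNA was amplified with the Ovation Single Cell kit before library construction. Whether the libraries came from different animals is not in the labels. The p-values therefore reflect how far these libraries scatter, part of which may be technical.

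Granules are filled in sequence while the cell matures. Primary (azurophil) granules are made in promyelocytes, specific (secondary) granules in myelocytes and metamyelocytes, and gelatinase granules later still, each with the proteins transcribed at that stage. Transcripts of specific granule proteins are therefore abundant in marrow neutrophil precursors and decline before the cell enters blood, while the proteins persist. The transcription factor C/EBP epsilon is required for specific granule genes in mouse and human.

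The promoter stretches of 4 of the genes are shown because 3 of them stood farthest above the other libraries in library 1, and the fourth, Mmp8, was the third of the 10 by level per kilobase in every library. The sequences are from RefSeq on GRCm38.p6 and read 5′ to 3′ on the gene's strand, keeping only bases upstream of both the RefSeq and the GENCODE start. They lie at chr9:110419558-110419746 (plus strand) for Ngp, chr9:111019042-111019270 (plus) for Ltf, chr9:109849618-109849706 (minus) for Camp and chr9:7558179-7558428 (plus) for Mmp8. Capitals mark matches to TTGCNNAA or its reverse complement TTNNGCAA, a core form of the sites bound by C/EBP factors.
Ngp: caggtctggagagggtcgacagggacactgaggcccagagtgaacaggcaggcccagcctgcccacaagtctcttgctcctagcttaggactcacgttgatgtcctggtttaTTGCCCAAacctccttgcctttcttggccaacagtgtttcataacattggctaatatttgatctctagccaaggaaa
Ltf: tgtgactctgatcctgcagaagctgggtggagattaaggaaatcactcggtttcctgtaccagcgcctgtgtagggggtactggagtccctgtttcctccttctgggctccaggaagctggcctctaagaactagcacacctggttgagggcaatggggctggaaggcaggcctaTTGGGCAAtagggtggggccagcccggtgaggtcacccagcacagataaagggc
Camp: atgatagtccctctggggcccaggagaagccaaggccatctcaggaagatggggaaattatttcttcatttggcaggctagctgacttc
Mmp8: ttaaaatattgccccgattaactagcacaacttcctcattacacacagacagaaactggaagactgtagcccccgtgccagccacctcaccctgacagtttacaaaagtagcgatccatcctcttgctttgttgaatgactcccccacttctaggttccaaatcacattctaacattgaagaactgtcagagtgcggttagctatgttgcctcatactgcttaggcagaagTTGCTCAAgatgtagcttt
In windows of 250 bases before the RefSeq start, available for 9 of the 10 genes (none for Hp), that motif was found on either strand in 5, namely Ngp, Ltf, Lcn2, Mmp8 and Retnlg. Ngp held 2 matches, of which the one 11 bases before the RefSeq start lies past the GENCODE start and outside the stretch printed. Of all 32851 windows of this length, 9.56% held the motif. The palindrome CACGTG, the E-box form bound by the clock activators, was in 0 of the 9 windows and in 6.02% of all windows. A match is a description of the letters and not a bound site.

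Facts of the libraries that touch every value come first. Values are the authors' normalised read counts. Whole reads recovered from them numbered 2869625 and 4058914 for Bmal1-labelled libraries 2 and 3, against 356872, 4646391 and 9101826 for Cxcr4-labelled libraries 1, 2 and 3. A count of 3 reads was worth 6.46 in Cxcr4-labelled library 1 and between 0.351 and 0.902 in the other 4, so the library in which these genes were highest was also the shallowest. The summed level of 10 neutrophil markers, such as S100a8, S100a9 and Csf3r, made up 1.07% and 0.736% of column totals for Bmal1-labelled libraries 2 and 3, against 1.54%, 0.495% and 0.0336% for Cxcr4-labelled libraries 1, 2 and 3. The summed level of 12 endothelial markers was 0.686% and 1.18% in the Bmal1-labelled libraries, against 0.852%, 1.19% and 1.98% in Cxcr4-labelled libraries 1, 2 and 3. No endothelial marker was at 0 in any library. Endothelial exceeded neutrophil marker RNA in Bmal1-labelled library 3 and in Cxcr4-labelled libraries 2 and 3, and was present in the remaining libraries too, although all were sorted on Ly6G. Cxcr4-labelled library 3 stood farthest apart, with the least neutrophil and the most endothelial marker RNA. In bulk RNA, fewer neutrophils and less of a transcript in each neutrophil cannot be told apart. The targeted gene Cxcr4 had 399 and 128 in the Bmal1-labelled libraries, against 15.1, 72.2 and 4.8 in Cxcr4-labelled libraries 1, 2 and 3, without overlap. Arntl did not follow the labels, with 4.81 and 27.6 for the Bmal1-labelled libraries, against 15.1, 1.9 and 1.05 for Cxcr4-labelled libraries 1, 2 and 3, so the groups are called by their labels.

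Gene positions below are on GRCm38 from GENCODE, and all 10 genes are protein-coding. Ngp, Ltf and Camp encode soluble proteins of the specific granule matrix. They stood near the floor of detection or at low levels in 4 libraries and high in Cxcr4-labelled library 1. Ngp encodes neutrophilic granule protein, a cystatin-like protein known in mouse (ENSMUSG00000032484, chromosome 9, 110419747 to 110423012, plus strand). Its normalised read count was 1229 in Cxcr4-labelled library 1, against 7.52 and 6.28 in Bmal1-labelled libraries 2 and 3, with 15.8 and 25.6 in Cxcr4-labelled libraries 2 and 3. Library 1 was 47.9-fold above the highest of the others on 571 reads, with a 95% exact Poisson interval for its value of 1130.3 to 1334 that covers counting error only. Copies made by PCR cannot be told apart here, as there are no molecular identifiers, so such intervals are narrower than the spread between samples.

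Ltf encodes lactoferrin, the iron-binding protein that defines the specific granule (ENSMUSG00000032496, chromosome 9, 111019271 to 111042767, plus strand). It had 859 in Cxcr4-labelled library 1, against 6.31 and 3.14 in Bmal1-labelled libraries 2 and 3, with 22.8 and 15.7 in Cxcr4-labelled libraries 2 and 3. The value in library 1 rested on 399 reads and was 37.7-fold above the highest of the others. For Ngp and Ltf alike, both Bmal1-labelled libraries lay below every Cxcr4-labelled library.

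Camp encodes the mouse cathelicidin, the precursor of the antimicrobial peptide CRAMP (ENSMUSG00000038357, chromosome 9, 109847379 to 109849617, minus strand). It had 282 in Cxcr4-labelled library 1, against 3.01 and 0.448 in Bmal1-labelled libraries 2 and 3, with 0.633 and 1.99 in Cxcr4-labelled libraries 2 and 3. Library 1 held 131 reads, and the others held 10, 2, 3 and 17 reads in the same order. The ratio to the highest of the others was 93.8. On the log2(value + 1) scale this was the largest such excess among the 14632 tested genes. Camp in Bmal1-labelled library 3 and Cxcr4-labelled library 2 was at or under the value of 3 reads.

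Camp, Ngp and Ltf lie in that order on chromosome 9, with 570130 bases between Camp and Ngp and 596259 between Ngp and Ltf. Of the 23 other genes of the table in that stretch, 18 were tested, and library 1 was the highest in 5 of them. Their median difference of library 1 from the mean of the other libraries was -0.33 on the log2(value + 1) scale, close to the median of -0.29 over all tested genes. The largest, that of the kinesin gene Kif9, was 1.46, so no tested neighbour in the stretch came near Camp, Ngp or Ltf.

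**Figure D1:**
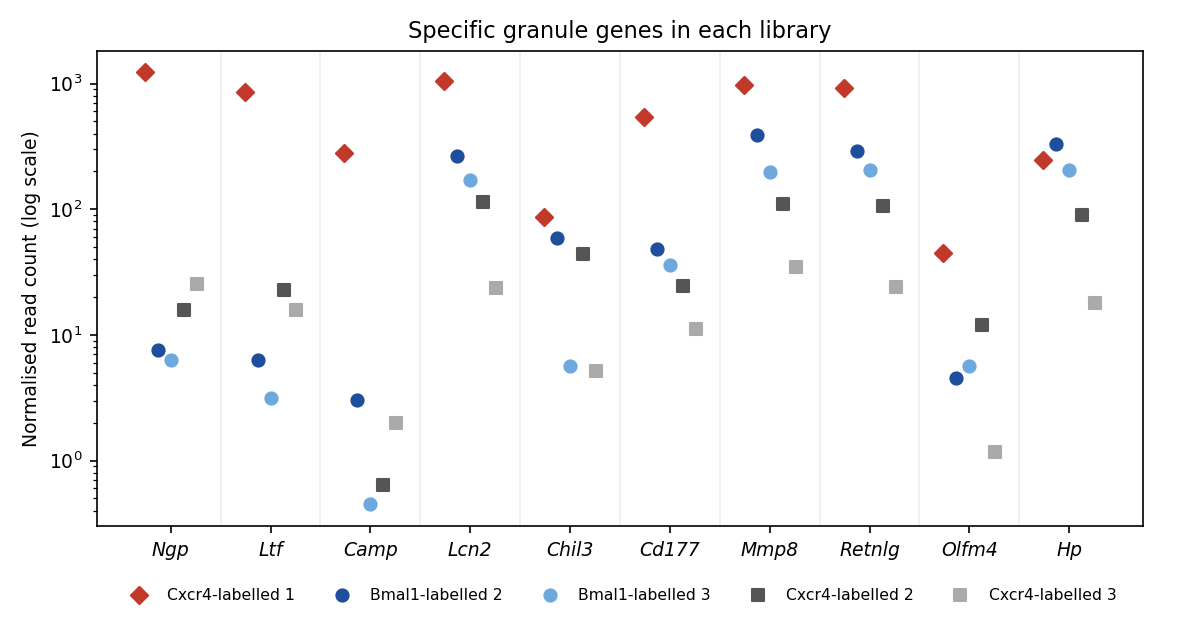
Normalised read count (log axis) of each of the 10 genes in each library, 1 point per library, with Cxcr4-labelled library 1 as red diamonds. Library 1 is the highest for 9 genes, by 93.8-fold for Camp and 1.47-fold for Chil3, and lies below Bmal1-labelled library 2 for Hp.

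Cd177, Olfm4, Lcn2 and Mmp8 encode further proteins of specific granules, and were also highest in library 1. Cd177 is a surface glycoprotein that is stored in specific granules and displayed on the cell (ENSMUSG00000052212, chromosome 7, 24743983 to 24760311, minus strand). Its value was 547 in Cxcr4-labelled library 1, against 48.1 and 35.7 in Bmal1-labelled libraries 2 and 3, with 24.3 and 11.2 in Cxcr4-labelled libraries 2 and 3. The ratio of library 1 to the highest of the others was 11.4, and the other 4 libraries lay within 4.28-fold of each other.

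Lcn2 encodes lipocalin 2, which withholds iron from bacteria by binding their siderophores (ENSMUSG00000026822, chromosome 2, 32384633 to 32388252, minus strand). It had 1039.7 in Cxcr4-labelled library 1, against 264 and 170.0 in Bmal1-labelled libraries 2 and 3, with 115 and 23.4 in Cxcr4-labelled libraries 2 and 3. Mmp8 encodes neutrophil collagenase (ENSMUSG00000005800, chromosome 9, 7558456 to 7568485, plus strand). It had 969 in Cxcr4-labelled library 1, against 391 and 198 in Bmal1-labelled libraries 2 and 3, with 109.8 and 34.7 in Cxcr4-labelled libraries 2 and 3. Library 1 exceeded the highest of the others 3.94-fold for Lcn2 and 2.47-fold for Mmp8, far less than for Ngp, Ltf and Camp. Both genes were well detected in all libraries, with at least 200 reads for Lcn2 and 296 for Mmp8.

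Olfm4 encodes olfactomedin 4, a glycoprotein found in a subset of neutrophils (ENSMUSG00000022026, chromosome 14, 79984081 to 80023139, plus strand). It had 45.2 in Cxcr4-labelled library 1, against 4.51 and 5.61 in Bmal1-labelled libraries 2 and 3, with 12 and 1.17 in Cxcr4-labelled libraries 2 and 3. Its value in library 1 rested on only 21 reads (95% exact Poisson interval 28.0 to 69.1). That interval lay above the interval of 9.11 to 15.6 in Cxcr4-labelled library 2, the next highest.

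Retnlg, Chil3 and Hp encode secreted products of maturing neutrophils, and Chil3 and Hp are also made by other cells. Retnlg encodes resistin-like gamma (ENSMUSG00000022651, chromosome 16, 48872621 to 48874496, plus strand). It had 921 in Cxcr4-labelled library 1, against 289 and 205 in Bmal1-labelled libraries 2 and 3, with 107 and 23.9 in Cxcr4-labelled libraries 2 and 3. Its paralog Retnla, whose reads could in part be assigned to it or taken from it, stood at 8.61 in library 1, against 5.11 and 0 in the Bmal1-labelled libraries, with 11.6 and 1.29 in Cxcr4-labelled libraries 2 and 3.

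Chil3 encodes the chitinase-like protein Ym1, also made by macrophages (ENSMUSG00000040809, chromosome 3, 106147554 to 106167564, minus strand). It had 86.1 in Cxcr4-labelled library 1, against 58.6 and 5.61 in Bmal1-labelled libraries 2 and 3, with 43.7 and 5.15 in Cxcr4-labelled libraries 2 and 3. Its interval in library 1, 61.5 to 117 on 40 reads, overlapped that in Bmal1-labelled library 2, 50.7 to 67.5, and the difference between these 2 libraries was not tested. Chil3 has the close paralog Chil4, with which reads may be shared. The levels thus fell into 3 high and 2 low libraries that crossed the genotype labels. The summed alveolar macrophage markers were split in the same way, at 0.0126% in library 1, against 0.0176% and 0.00303% in Bmal1-labelled libraries 2 and 3, with 0.0338% and 0.00067% in Cxcr4-labelled libraries 2 and 3. So were the lung epithelium markers, at 0.0118%, against 0.0320% and 0.00116% in the Bmal1-labelled libraries, with 0.00521% and 0.000582% in Cxcr4-labelled libraries 2 and 3. Car4 was the largest part of the alveolar macrophage sum except in Bmal1-labelled library 3. It had 88.3 in library 1, 120.0 and 10.1 in the Bmal1-labelled libraries, and 310.1 and 6.56 in Cxcr4-labelled libraries 2 and 3. Ear2 and Krt79 were split in that way too, at lower values. Siglecf was not, with 24.1 and 16.4 in the Bmal1-labelled libraries and 0 in every Cxcr4-labelled library. Outside Bmal1-labelled library 3 the alveolar macrophage sum thus rested mainly on Car4, and it is not read as a level of alveolar macrophages. The part of either marker list in the Chil3 values was not tested.

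Hp encodes haptoglobin, the haemoglobin-binding plasma protein made mainly by the liver and also stored in neutrophil granules (ENSMUSG00000031722, chromosome 8, 109575128 to 109579172, minus strand). It was the exception among the 10, with 248 in Cxcr4-labelled library 1, against 332 and 204 in Bmal1-labelled libraries 2 and 3, with 90.6 and 17.9 in Cxcr4-labelled libraries 2 and 3. The share of hepatocyte marker RNA in the column total was 0.00275% for Bmal1-labelled library 2 and 0.0390% for Bmal1-labelled library 3. That share was 0.0221% for library 1, 0.00198% for Cxcr4-labelled library 2 and 0.0128% for Cxcr4-labelled library 3. Alb was its largest part in every library, from 5.70 in Cxcr4-labelled library 2 to 239 in Bmal1-labelled library 3. Hp and the hepatocyte share were highest in different libraries. The part of hepatocyte RNA in the Hp values was not tested. Within the other 4 libraries Hp ranged 18.5-fold, the widest range of the 10.

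Library 1 was thus the highest of the 5 for 9 of the 10 genes, where it was the highest for 12.2% of all tested genes. It stood at least 4-fold above the highest of the others, on the log2(value + 1) scale, for 4 of the 10 (Camp, Ngp, Ltf and Cd177), against 1.13% of all tested genes. Because these genes were chosen by that pattern, nothing is read from either count. Ranked among the 3318 tested genes with at least 20 reads in library 1 by the log2 difference from the highest of the others, the 10 genes took places 1 (Camp), 3 (Ngp), 4 (Ltf), 6 (Cd177), 12 (Lcn2), 16 (Olfm4), 21 (Retnlg), 33 (Mmp8), 103 (Chil3) and 902 (Hp). The other genes among the first 10 were mt-Nd3, I830127L07Rik, Itgb2l, Adpgk, Abca13 and Gm1966. Of these, mt-Nd3, a mitochondrial subunit of respiratory complex I, had 25 reads in library 1 and 0 in the other 4. Itgb2l, a beta integrin-like gene, had 73.2 in library 1, against 1.5 and 3.59 in the Bmal1-labelled libraries, with 9.92 and 2.69 in Cxcr4-labelled libraries 2 and 3.

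Levels can be set against each other per kilobase of exon within a library. In library 1 Retnlg led with 1554 per kilobase, followed by Ngp with 1006, Mmp8 with 399, Lcn2 with 396, Camp with 372, Ltf with 249, Cd177 with 193, Hp with 154, Chil3 with 52.8 and Olfm4 with 15.3. The neighbours Mmp8, Lcn2 and Camp had overlapping counting intervals at these levels. Retnlg led in every library, at 487 and 346 per kilobase for Bmal1-labelled libraries 2 and 3, with 181 and 40.3 for Cxcr4-labelled libraries 2 and 3. The places below it differed. Ngp, second in library 1, was seventh and sixth in Bmal1-labelled libraries 2 and 3, sixth in Cxcr4-labelled library 2 and second again in Cxcr4-labelled library 3. Hp was second in both Bmal1-labelled libraries and in Cxcr4-labelled library 2.

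Since neutrophil marker RNA differed so much between libraries, each gene was also expressed relative to the sum of 16 core neutrophil genes, which include S100a8, S100a9, Csf3r, Cxcr2, Ly6g and Mmp9. On that scale the summed 10 genes came to 47.7% of the core sum in Cxcr4-labelled library 1, against 12.5% and 10.2% in Bmal1-labelled libraries 2 and 3, with 9.04% and 30.1% in Cxcr4-labelled libraries 2 and 3. Ngp came to 9.43% of the core sum in library 1, against 0.0671% and 0.0769% in the Bmal1-labelled libraries, with 0.264% and 4.80% in Cxcr4-labelled libraries 2 and 3. Ltf came to 6.59%, against 0.0563% and 0.0385% in the Bmal1-labelled libraries, with 0.380% and 2.93% in Cxcr4-labelled libraries 2 and 3. Cxcr4-labelled library 3 was thus second to library 1 on this scale for both. Its core sum was small, and lists of other genes stood far higher there on the same scale. Primary granule genes summed to 247% of the core sum in Cxcr4-labelled library 3, against 8.63% to 29.6% in the other 4 libraries, and other specific granule and late marrow genes to 202%, against 23.8% to 38.9%. Endothelial markers summed to 3937% there. High percentages in that library were thus also seen outside the 10 genes. Camp followed the same order for the top pair, with 2.16% in library 1 and 0.372% in Cxcr4-labelled library 3, and at most 0.0268% elsewhere.

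The genes found at fair levels in every library moved less on this scale. Lcn2 came to 7.97% of the core sum in library 1, against 2.35% and 2.08% in the Bmal1-labelled libraries, with 1.92% and 4.38% in Cxcr4-labelled libraries 2 and 3. Retnlg came to 7.07%, against 2.58% and 2.51% in the Bmal1-labelled libraries, with 1.79% and 4.47% in Cxcr4-labelled libraries 2 and 3. Cd177 came to 4.19%, against 0.429% and 0.437% in the Bmal1-labelled libraries, with 0.405% and 2.10% in Cxcr4-labelled libraries 2 and 3. Mmp8 reached 7.43% in library 1 and 6.48% in Cxcr4-labelled library 3, with 1.83% to 3.49% in the other libraries. Hp and Chil3 were highest relative to the core sum in Cxcr4-labelled library 3, at 3.35% and 0.963%, and Olfm4 in library 1, at 0.347%. The core sum was only 535 in Cxcr4-labelled library 3, against 6001 to 13038 in the other 4, so its percentages divide by a small and uncertain amount.

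**Figure D2:**
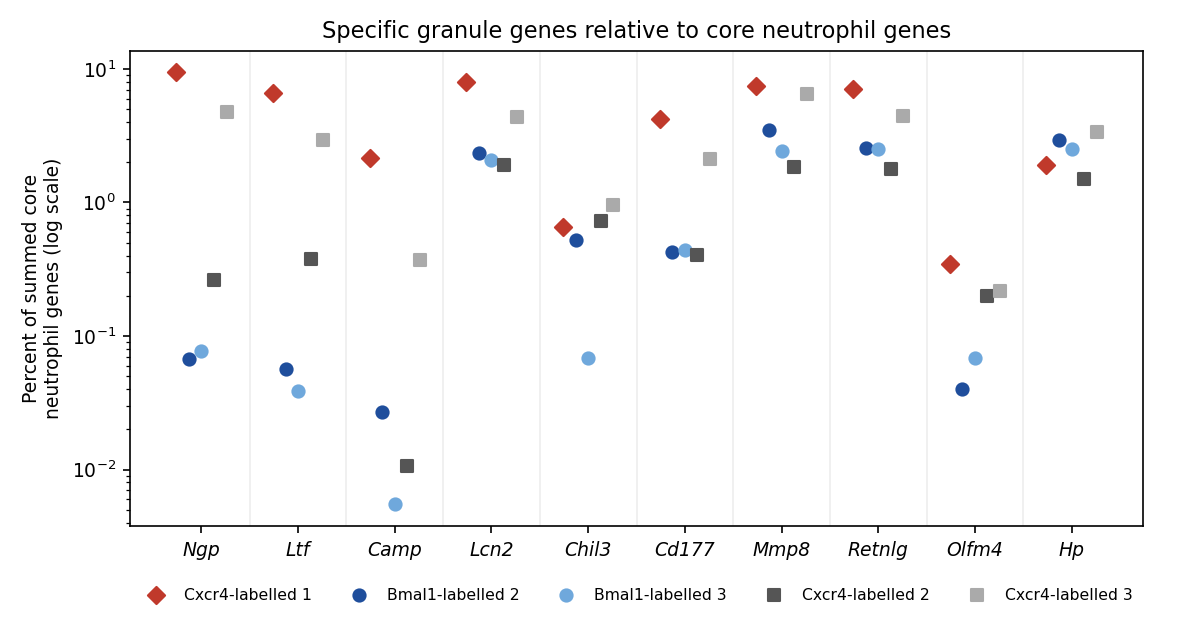
Each of the 10 genes as a percent of the summed 16 core neutrophil genes of the same library (log axis), 1 point per library. Library 1 (red diamonds) and Cxcr4-labelled library 3 (light grey squares) are the 2 highest for Ngp, Ltf, Camp, Cd177, Lcn2, Mmp8, Retnlg and Olfm4.

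A ratio within the 10 genes does not depend on how a library was scaled. The sum of Ngp, Ltf and Camp was 80.9% of the sum of Lcn2, Mmp8 and Retnlg in Cxcr4-labelled library 1. Bmal1-labelled libraries 2 and 3 had 1.78% and 1.72%, and Cxcr4-labelled libraries 2 and 3 had 11.8% and 52.9%. All 3 Cxcr4-labelled libraries lay above both Bmal1-labelled libraries, without overlap. These 2 trios were set against each other after their values were seen, so the ratio is a description with no test. It shows unequal levels of the trios and not which of them differed.

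Other lists of neutrophil genes were set beside these 10. Over the 10 genes, library 1 lay above the mean of the other 4 libraries by a median of 3.16 on the log2(value + 1) scale, where the median of all tested genes was -0.29. The median was 2.22 over 22 tested other specific granule and late marrow genes, with library 1 highest in 15. It was 1.26 over 17 gelatinase granule genes (highest in 6), 0.79 over 16 core neutrophil genes (highest in 3), 0.60 over 22 genes of mature blood neutrophils (highest in 4) and 0.19 over 16 transcription factors of granulopoiesis (highest in 3). It was -0.05 over 8 primary granule genes (highest in 2), -0.54 over 20 proliferation genes (highest in 1) and -0.72 over 12 endothelial markers (highest in 0). Some genes stand in more than 1 of these lists, such as Ly6g, Mmp9 and Csf3r. Mpo of the primary granule list and Stfa3 of the gelatinase granule list passed the filter only through library 1. Stfa3 had 6.46 there on 3 reads, and at most 0.422 elsewhere. Both are counted in the medians and among the genes highest in library 1, so nothing is read from their place there.

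Among the other specific granule and late marrow genes, Wfdc21, a small secreted protein of mouse neutrophils, had 157 in library 1, against 19.2 and 22.6 in the Bmal1-labelled libraries, with 55.9 and 3.04 in Cxcr4-labelled libraries 2 and 3. The sorting marker Ly6g had 30.1 in library 1, against 6.31 and 5.16 in the Bmal1-labelled libraries, with 0 and 1.05 in Cxcr4-labelled libraries 2 and 3. Mmp25, a membrane-bound metalloproteinase of gelatinase granules, had 174 in library 1, against 39.1 and 26.0 in the Bmal1-labelled libraries, with 7.39 and 3.40 in Cxcr4-labelled libraries 2 and 3. Mmp9, gelatinase B itself, was not highest there, with 969 in library 1, against 1282 and 947 in the Bmal1-labelled libraries, with 156 and 25.2 in Cxcr4-labelled libraries 2 and 3.

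Genes made earlier or later in maturation gave mixed values. Mpo, the myeloperoxidase of primary granules, had 12.9 in library 1 on 6 reads, against 1.8 and 0 in the Bmal1-labelled libraries and 0 in both remaining Cxcr4-labelled libraries. Mpo passed the filter only through library 1, so its height there is a description. Elane, neutrophil elastase, was at 0 in library 1, where 3 reads were worth 6.46, so a low level there could go unseen. Csf3r, the receptor for the growth factor G-CSF, had 899.7 in library 1, against 2339 and 1338 in the Bmal1-labelled libraries, with 443 and 39.6 in Cxcr4-labelled libraries 2 and 3. The mitotic topoisomerase Top2a had 34.4 in library 1, against 10.2 and 41.7 in the Bmal1-labelled libraries, with 2.74 and 23.3 in Cxcr4-labelled libraries 2 and 3.

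Of the transcription factors, Cebpe, which encodes C/EBP epsilon, had 21.5 in library 1, against 9.92 and 5.83 in the Bmal1-labelled libraries, with 0.211 and 0.117 in Cxcr4-labelled libraries 2 and 3. Klf5, a zinc finger factor of the granulocyte lineage, had 40.9 in library 1, against 5.71 and 5.38 in the Bmal1-labelled libraries, with 0 and 0.586 in Cxcr4-labelled libraries 2 and 3. Both were highest in library 1, on only 10 reads for Cebpe and 19 for Klf5, and the Bmal1-labelled libraries came next. Of the related genes, Cebpa, Cebpb and Cebpd were not highest in library 1. Cebpb had 2.15 there on 1 read. It had 42.1 and 27.4 in the Bmal1-labelled libraries, with 42.6 and 1.29 in Cxcr4-labelled libraries 2 and 3.

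**Figure D3:**
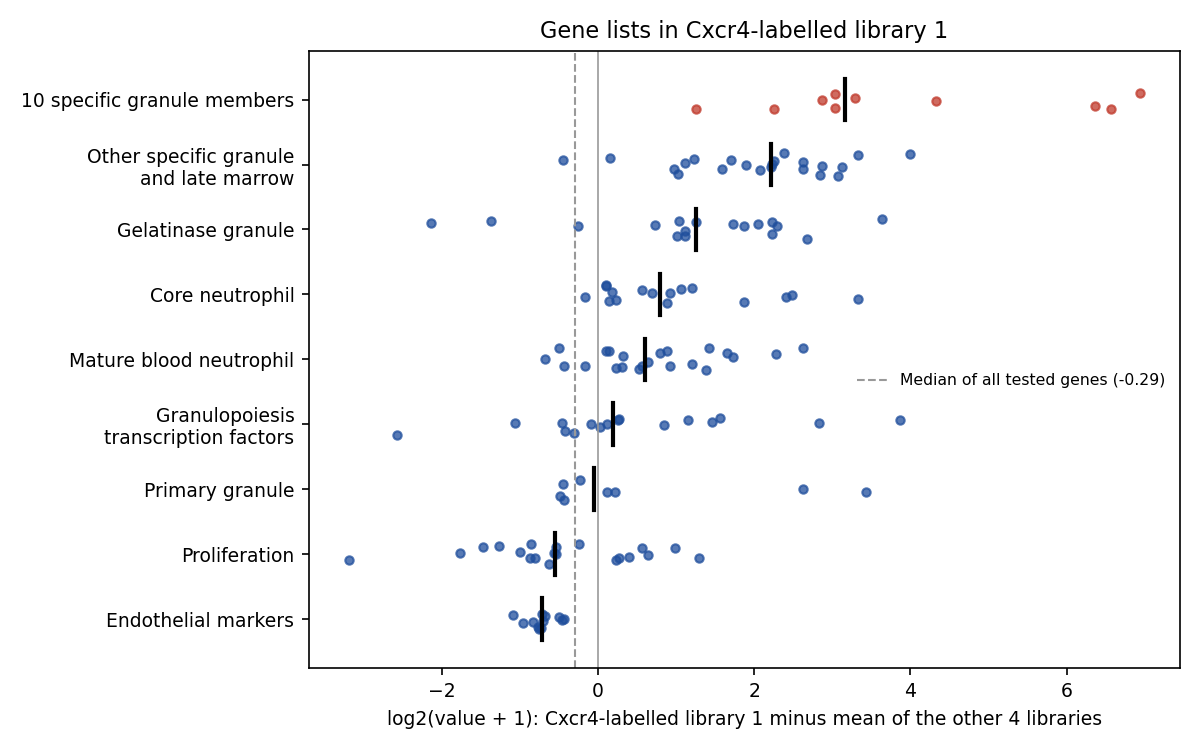
Difference of Cxcr4-labelled library 1 from the mean of the other 4 libraries on the log2(value + 1) scale, 1 point per tested gene and a black bar at each list's median. The 10 genes (red) have a median of 3.16 and the other specific granule genes 2.22, against -0.05 for primary granule genes and a dashed line at -0.29 for all tested genes.

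The comparison that the design implies is between the genotype labels. Each difference below is the Bmal1-labelled minus the Cxcr4-labelled mean of log2(value + 1), and SE is its standard error by limma. No gene passed an adjusted p of 0.05 in the 5 libraries or without library 1 (0% of 14632 genes in each fit, by limma and by edgeR), so 0 of the 10 genes were called by either. Without library 1, 1782 genes had an unadjusted limma p under 0.05, and 1291 an unadjusted edgeR p. With all 5 libraries these counts were 612 and 524.

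With all 5 libraries, library 1 set the Cxcr4-labelled mean. Ngp averaged 6.90 ± 0.875 in Bmal1-labelled libraries (SD, n = 2) and 424 ± 698 in Cxcr4-labelled libraries (SD, n = 3). Ltf averaged 4.73 ± 2.24 in Bmal1-labelled libraries (SD, n = 2) and 299 ± 485 in Cxcr4-labelled libraries (SD, n = 3). The difference was -3.38 (SE 1.61) for Ngp, -3.67 (SE 1.53) for Ltf and -2.21 (SE 2.05) for Camp. It was 1.79 (SE 0.95) for Hp, and the other 6 lay between -0.86 and 0.85 with an SE over 1. Both Bmal1-labelled libraries lay below all 3 Cxcr4-labelled libraries for 2 of the 10 genes, Ngp and Ltf, as they did for 5.22% of tested genes, and above them for 0 of the 10, against 13.6% of tested genes. DESeq2 on the recovered reads called 13 of the 11216 genes it gave an adjusted p, or 0.116%, and Ngp and Ltf were among them. These values hold library 1, whose values chose the genes, and support nothing.

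Leaving that library out gives the comparison it did not decide. Mmp8 then averaged 295 ± 137 in Bmal1-labelled libraries and 72.2 ± 53.1 in Cxcr4-labelled libraries (SD, n = 2 each). Retnlg averaged 247 ± 59.2 in Bmal1-labelled libraries and 65.6 ± 58.9 in Cxcr4-labelled libraries (SD, n = 2 each). Hp averaged 268 ± 90.6 in Bmal1-labelled libraries and 54.2 ± 51.4 in Cxcr4-labelled libraries (SD, n = 2 each). The differences were 2.15 (SE 0.70) for Mmp8, 2.23 (SE 0.79) for Retnlg and 2.65 (SE 0.85) for Hp. Their unadjusted limma p-values were 0.0330, 0.0421 and 0.0316, and their adjusted limma p-values were 0.391, 0.399 and 0.391. These 3 of the 10 genes were the ones at an unadjusted p under 0.05, where 12.2% of tested genes were. Lcn2 differed by 2.0 (SE 0.84, limma adjusted p 0.443) and Cd177 by 1.27 (SE 0.58, limma adjusted p 0.472).

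Ngp and Ltf ran the other way in the same 4 libraries. Ngp averaged 6.90 ± 0.875 in Bmal1-labelled libraries and 20.7 ± 6.94 in Cxcr4-labelled libraries (SD, n = 2 each). Ltf averaged 4.73 ± 2.24 in Bmal1-labelled libraries and 19.2 ± 5.03 in Cxcr4-labelled libraries (SD, n = 2 each). The differences were -1.43 (SE 0.69, limma adjusted p 0.493) for Ngp and -1.86 (SE 0.78, limma adjusted p 0.442) for Ltf. The difference was 0.12 (SE 0.79, limma adjusted p 0.967) for Camp, 0.26 (SE 1.54, limma adjusted p 0.965) for Chil3 and 0.18 (SE 1.18, limma adjusted p 0.967) for Olfm4, each smaller than its SE.

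Both Bmal1-labelled libraries lay above both Cxcr4-labelled libraries 2 and 3 for 5 of the 10 genes (Lcn2, Cd177, Mmp8, Retnlg and Hp), against 23.8% of tested genes. They lay below both for 2 of the 10 (Ngp and Ltf), against 19.2% of tested genes, and the groups overlapped for 3. DESeq2 called 286 genes in these libraries, 2.27% of the 12606 it gave an adjusted p, and 0 of the 9 genes described here to which it gave one (Camp had none). The median difference over the 10 genes was 0.76, beside 0.01 over all tested genes. Leaving out Bmal1-labelled library 3 moved that median to 1.66, and leaving out Cxcr4-labelled library 2 moved it to 1.74. Leaving out Bmal1-labelled library 2 or Cxcr4-labelled library 3 instead lowered it slightly. With none of these left out, the median was 1.81 over the other specific granule and late marrow genes (20 of 22 higher). It was 2.27 over gelatinase granule genes (13 of 17), 2.28 over core neutrophil genes (16 of 16) and 2.52 over mature blood neutrophil genes (19 of 22). It was 1.85 over the transcription factors (13 of 16), 0.06 over primary granule genes (5 of 8), 0.05 over proliferation genes (11 of 20) and -0.90 over endothelial markers (0 of 12). limma called none of these genes. DESeq2 called Mmp9 and Slc11a1 of the gelatinase granule list, Fcgr4 of the mature neutrophil list and Runx1 of the transcription factors, with Mmp9 also a core neutrophil gene.

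The 5 genes on the higher side stood beside the same difference in neutrophil marker RNA. They also stood beside red cell RNA. The 8 erythroid markers in the table together made up 0.348% and 0.256% of column totals for the Bmal1-labelled libraries, against 0.288%, 0.00893% and 0.0172% for Cxcr4-labelled libraries 1, 2 and 3. Over the 6 that were tested, the median difference without library 1 was 5.09 (6 of 6 higher), with 0 called by limma and 5 by DESeq2 (Alas2 and the globin genes Hba-a1, Hba-a2, Hbb-bs and Hbb-bt). Library 1 lay above the mean of the others by a median of 2.11 over the same 6. The membrane transporter gene Slc4a1 was at 0 in all 3 Cxcr4-labelled libraries. Monocyte and macrophage markers were higher for 10 of 13, with a median of 1.08. The part of neutrophil, red cell and monocyte RNA in the values of the 10 genes was not tested. As a percent of the core sum, these 5 genes were lower in Cxcr4-labelled library 2 than in either Bmal1-labelled library, and higher than in either in Cxcr4-labelled library 3, whose core sum was the smallest. Without Cxcr4-labelled library 3 as well, 2 libraries were set against 1, and the lone library was assumed to vary like the other group. The differences were then 1.33 for Mmp8, 1.17 for Retnlg, 1.51 for Hp, 0.87 for Lcn2 and 0.75 for Cd177. They were -1.10 for Ngp and -2.11 for Ltf, while the core neutrophil median was 0.59. No gene was called in that setting.

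**Figure D4:**
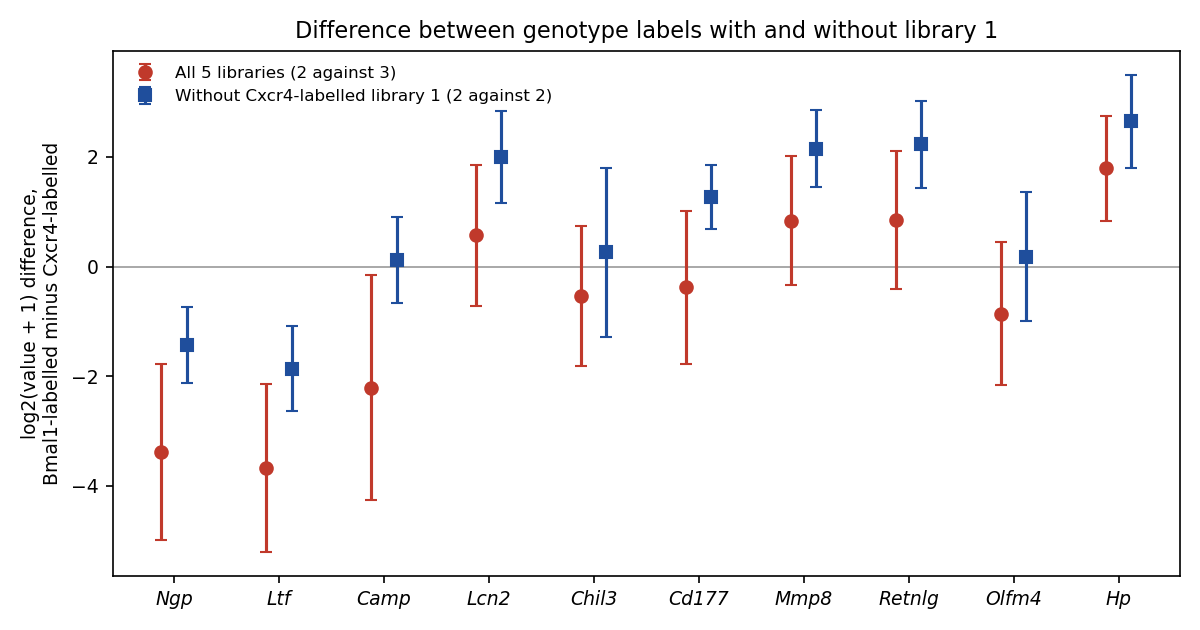
Bmal1-labelled minus Cxcr4-labelled difference on the log2(value + 1) scale for each of the 10 genes, with bars of 1 SE from limma, in all 5 libraries (red circles) and without Cxcr4-labelled library 1 (blue squares). Without that library Ngp stands at -1.43 and Ltf at -1.86, and Hp, Retnlg, Mmp8 and Lcn2 stand between 2.0 and 2.65.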

How the data were processed

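RNA of sorted mouse blood neutrophils was sequenced in 5 libraries, 2 Bmal1-labelled and 3 Cxcr4-labelled. The deposited values are normalised read counts per gene, a non-negative signal. Tools and build listed in the submitters' processing notes, without roles, are RSEM 1.2.3, CASAVA 1.8.2, cutadapt and GRCm38. For the normalisation, annotation and strand setting, the sources used here give nothing. Dividing each column by its smallest positive value gave whole reads for 100% of the deposited values, within 0.01 of a read.

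Identifiers were matched to GENCODE M21 symbols (18847 of 19127). Groups were compared with limma 3.58.1 in R 4.3.3, with an intensity trend, on log2(value + 1), two-sided, with Benjamini-Hochberg adjustment over the 14632 genes whose mean CPM reached 1. This scale understates differences of low genes. Residual degrees of freedom were 3 for all libraries and 2 without Cxcr4-labelled library 1. The second fit is the only one whose p-values are given for the 10 genes. edgeR 4.0.16 (quasi-likelihood) and DESeq2 1.42.0 were run on recovered reads as alternatives. The limma fit was run on simulated counts that scattered less than these libraries. That run cannot tell how many true differences the fit would call at the scatter seen here. Intervals are exact Poisson at 95%.

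Replicates were not duplicates, with a chi-square per degree of freedom between pairs of 23.5 to 162. Samples were not paired. All 10 genes are named, with up to 3 genes per list by lowest p and up to 3 by height in library 1, and the 10 genes highest there among those with at least 20 reads. Elane, Cebpa, Cebpb, Alb, Kif9 and the erythroid markers are named outside that rule, after their values were seen. Also outside it, Retnla and Chil4 are named as paralogs, and Cxcr4 and Arntl as the targeted genes. The 10 genes, the lists and the tests were chosen with earlier results of these data known.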

Additional observations from a re-analysis of the deposited data

How the results depend on the processing

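Genes called between the labels numbered 0 under every setting run in both fits, except DESeq2, which called 13 with 5 libraries and 286 without Cxcr4-labelled library 1. Height of library 1 over the mean of the others (median over the 10 genes, 3.16) ranged from 3.09 to 3.47 with other pseudocounts and scalings, and from 2.57 to 3.61 when leaving out each other library. The summed genes (3.46) gave 2.86 to 3.89, and relative to core neutrophil genes (1.81) 1.61 to 2.19, when leaving out each other library.

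With 5 libraries, some genotype differences turned in sign. A block by replicate number takes library 1 out of the difference, as no Bmal1-labelled library here has its number. That block and leaving out library 1 are therefore the same estimate, 0.12 for Camp, 0.26 for Chil3, 1.27 for Cd177 and 0.18 for Olfm4. Lcn2 was -0.97 by edgeR and -1.06 by DESeq2, Mmp8 -0.43 and -0.53, and Retnlg -0.62 and -0.71. Leaving out 1 library at a time gave -3.59 to 0.12 for Camp, -2.13 to 1.05 for Chil3, -1.47 to 1.27 for Cd177, -2.02 to 0.18 for Olfm4, -0.71 to 2.0 for Lcn2, -0.23 to 2.15 for Mmp8 and -0.37 to 2.23 for Retnlg. The low ends for Lcn2, Mmp8 and Retnlg are without Cxcr4-labelled library 3. In the fit without library 1, leaving out 1 more gave -0.61 to 0.86 for Camp, -1.33 to 1.85 for Chil3 and -1.11 to 1.47 for Olfm4. There Olfm4 was -0.03 at a pseudocount of 5, -0.36 by edgeR and -0.38 by DESeq2. The cause was not tested. The directions of Ngp, Ltf and Hp did not turn in any setting run. The median of all genes was 0.11 with 5 libraries (0.17 rescaled to CPM, -0.09 by edgeR) and 0.01 without library 1 (0.18 rescaled to CPM, -0.10 by edgeR).

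Only numbers 2 and 3 occur under both labels, and no label ties them to a shared source. The deviations of same-numbered libraries correlated at 0.28 (number 2) and 0.39 (number 3). The deviations of the 2 Bmal1-labelled libraries mirror each other by construction, so the unlike-numbered pairs gave -0.28 and -0.39. These values cannot tell whether libraries of the same number share a source. The replicate block gave 0 calls. The depth of library 1 limits low genes, since 3 reads there are worth 6.46.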
